A study of Mus musculus with 8 samples.

Results

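Receptor tyrosine kinases sit in the cell membrane, bind a growth factor or a matrix protein outside the cell, pair up, and phosphorylate one another and the adaptors that dock on their tails. The signal runs through RAS and ERK and through PI3-kinase and AKT to growth, survival and movement. In breast tissue Egfr, Erbb2, Erbb3, Met and Ddr1 are counted among the receptors of epithelial cells, Axl, Fgfr1, Pdgfrb and Flt1 among those of mesenchymal or vascular cells, and Igf1r is found in both. These 10 genes were taken by name from a table of 16647 gene rows, and all 10 were present. Values were examined in every library, along an epithelial to mesenchymal axis of cells inside each library, and beside the ligands, coreceptors and relay genes of the same pathways.

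The cells are Tri-PyMT cells, grown in DMEM with 10% FBS, from a primary metastatic breast tumor. The mouse carried the transgenes MMTV-PyMT and Fsp1-cre and the reporter allele Rosa26mT/mG. All cells of both groups carry all 3 elements: the MMTV promoter drives the PyMT oncogene in mammary epithelium, the promoter of Fsp1 (also called S100a4) drives Cre, and the Rosa26 reporter changes from a red to a green membrane protein in cells where Cre has acted and in their daughters. FACS separated an RFP+ and a GFP+ population, without further treatment in the labels, and Drop-seq counted polyadenylated RNA per cell. The 8 labelled samples, 4 per population, are 2 libraries per population with 2 lanes each, so n is 2 libraries throughout, and nothing in the labels says that these came from separate cultures. The p-values therefore measure the spread between libraries, which may be technical.

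Total counts per library ran from 2550319 to 3081009, over 7390 cells in all, and no cell barcode was shared between any pair of libraries. The reporter rows went against the labels. The GFP reporter row stood at 612 and 590 CPM (the library's counts scaled to a common total) where the label was RFP+ and 99.7 and 104 CPM where it was GFP+, and the RFP row at 132 and 137 CPM against 2943 and 3053 CPM. S100a4, whose promoter drives the Cre, had 648 and 676 CPM under the RFP+ label and 1843 and 2114 CPM under the GFP+ label. Vim and Krt18 followed, with 1947 and 1837 against 3187 and 3315 CPM for Vim, a mesenchymal filament, and 976 and 1020 against 360 and 374 CPM for Krt18, an epithelial keratin. Populations are named below by their labels, and every fold is of the GFP+ labelled over the RFP+ labelled libraries. Mitochondrially encoded RNA made up 0.664% and 0.644% of counts against 0.403% and 0.378%, and its part in the results was not tested. Endothelial, pericyte and smooth muscle, and immune markers were scarce. The 6 endothelial markers in the table summed to between 3.25 and 6.69 CPM per library with Cldn5 at 0, the 7 pericyte and smooth muscle markers to between 3.14 and 8.70 CPM with Abcc9 at 0, and the 6 immune markers to between 6.93 and 13.4 CPM with Lyz2 at 0. The 5 fibroblast markers summed to 5.52 and 3.35 CPM in the RFP+ labelled and 45.0 and 51.8 CPM in the GFP+ labelled libraries, of which Col1a2 alone gave 205 of the 249 counts in the latter.

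Promoter sequences are shown for Flt1, the receptor that rose most, for Axl, the receptor called lower in the GFP+ labelled libraries, and for Met, the most abundant receptor of the epithelial group. They are RefSeq sequences of 300 bases on GRCm38.p6, from 250 bases before to 50 after the transcription start, and 7 of the 10 genes had an entry. They are written 5′ to 3′ on the gene's own strand, which is the minus strand for Flt1 (chr5:147725962-147726261) and Axl (chr7:25788684-25788983) and the plus strand for Met (chr6:17463707-17464006). Capitals mark matches on either strand. The motifs searched were the GC box, spelled GGGCGG, the common core promoter element TATAAA, the cyclic AMP response element TGACGTCA, the element of Fos and Jun proteins, spelled TGANTCA, and the E-box bound by Snail and Zeb proteins, spelled CAGGTG.
Flt1: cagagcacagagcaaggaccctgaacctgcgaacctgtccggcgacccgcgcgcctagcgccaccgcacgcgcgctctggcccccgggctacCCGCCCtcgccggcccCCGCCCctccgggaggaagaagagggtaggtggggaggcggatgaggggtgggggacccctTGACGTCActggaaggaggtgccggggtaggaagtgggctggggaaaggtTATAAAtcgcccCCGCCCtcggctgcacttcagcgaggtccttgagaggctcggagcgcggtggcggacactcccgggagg
Axl: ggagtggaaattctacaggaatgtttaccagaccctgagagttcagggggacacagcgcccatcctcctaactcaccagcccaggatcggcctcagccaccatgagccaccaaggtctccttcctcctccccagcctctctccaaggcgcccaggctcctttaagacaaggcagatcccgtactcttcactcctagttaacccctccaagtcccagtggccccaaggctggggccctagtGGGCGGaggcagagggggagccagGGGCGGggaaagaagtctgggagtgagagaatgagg
Met: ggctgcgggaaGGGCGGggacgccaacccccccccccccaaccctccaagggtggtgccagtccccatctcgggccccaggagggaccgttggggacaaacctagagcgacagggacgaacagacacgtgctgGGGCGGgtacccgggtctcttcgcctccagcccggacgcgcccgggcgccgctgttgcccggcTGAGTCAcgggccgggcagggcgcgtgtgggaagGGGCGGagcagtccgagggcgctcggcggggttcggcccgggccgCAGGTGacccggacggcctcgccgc
The Flt1 promoter held 3 GC boxes, 1 TATA box and 1 cyclic AMP response element, the Axl promoter 2 GC boxes, and the Met promoter 3 GC boxes, 1 Fos and Jun element and 1 E-box. No match overlapped another. Of 32851 promoters of the same length, 35.7% held the GC box, 13.6% the TATA box, 1.79% the cyclic AMP response element, 7.81% the Fos and Jun element and 20.2% the E-box. GC content was 70.7% for Flt1, 60.3% for Axl and 75.7% for Met, against a median of 52.7% over all promoters. These matches describe letters in the window, and binding was not measured.

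The largest difference was in the VEGF receptor Flt1 (5:147561604-147726011, minus strand, GRCm38), which binds VEGF-A, VEGF-B and placental growth factor and is best known from endothelium. Flt1 had 3.25 and 2.34 CPM in the RFP+ labelled libraries (10 and 7 counts) and 14.6 and 12.5 CPM in the GFP+ labelled ones (38 and 32 counts). The populations did not overlap, and the exact 95% Poisson intervals of counting did not either, since the upper bounds of 5.97 and 4.83 CPM lay under the lower bounds of 10.4 and 8.58 CPM. Means were 2.79 ± 0.639 and 13.6 ± 1.47 CPM (SD, n = 2 and 2). The log2 fold was 2.25 ± 0.33 (SE; edgeR quasi-likelihood test, adjusted p = 8.3e-07). Flt1 passed the level filter of 10 CPM only through the GFP+ labelled libraries, where it was high. With all genes tested, without that filter, its log2 fold was 2.25 and its adjusted p 0.00027. It was past the threshold in all 10 alternatives that tested it, with log2 folds of 2.05 to 2.50. The 6 endothelial markers in the table summed to 30 counts in the RFP+ labelled and 20 counts in the GFP+ labelled libraries. Among them Pecam1 had 0 counts and 1 count, and Kdr, the other main VEGF receptor, had 2 and 3 counts, while the sum went the other way. The part of endothelial cells in the Flt1 result was not tested.

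Pdgfrb (18:61045150-61085061, plus strand), the receptor for PDGF-B dimers that marks pericytes and fibroblasts, was the other receptor at a low level that differed. It had 6.17 and 3.68 CPM (19 and 11 counts) in the RFP+ labelled and 9.62 and 10.98 CPM (25 and 28 counts) in the GFP+ labelled libraries. The populations did not overlap in CPM, but the counting intervals did, with an upper bound of 9.63 CPM in RFP+ labelled library 1 and a lower bound of 6.23 CPM in GFP+ labelled library 1. The log2 fold was 1.04 ± 0.31 (SE; means 4.92 ± 1.76 and 10.3 ± 0.959 CPM, SD; adjusted p = 0.0098). Pdgfrb too passed the filter only through the GFP+ labelled libraries, and with all genes tested its adjusted p was 0.045. Without RFP+ labelled library 2 the log2 fold was 0.73 and the call was lost (adjusted p = 0.150), and DESeq2 gave 1.05 with an adjusted p of 0.261. The fibroblast marker sum given above moved with Pdgfrb. Every marker in that sum had more counts in the GFP+ labelled than in the RFP+ labelled libraries. The counts (RFP+ then GFP+ labelled) were 4 and 10 for the fibroblast receptor Pdgfra, 14 and 205 for Col1a2 and 3 and 21 for Col3a1. They were 0 and 5 for Col1a1 and 6 and 8 for Dcn. The part of fibroblasts in the Pdgfrb result was not tested.

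Fgfr1 (8:25513654-25575718, plus strand), the FGF receptor of mesenchymal cells, had 31.5 and 25.1 CPM (97 and 75 counts) in the RFP+ labelled and 42.3 and 35.7 CPM (110 and 91 counts) in the GFP+ labelled libraries. The lowest GFP+ labelled library lay above the highest RFP+ labelled one. The log2 fold was 0.45 ± 0.16 (SE; means 28.3 ± 4.52 and 39.0 ± 4.71 CPM, SD; adjusted p = 0.027). This call depended on single libraries, since the log2 fold was 0.31 without RFP+ labelled library 2 (adjusted p = 0.252) and 0.32 without GFP+ labelled library 1 (adjusted p = 0.229). It was also lost in DESeq2 (0.45, adjusted p = 0.341) and with all genes tested (0.45, adjusted p = 0.0973).

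Axl (7:25757273-25788705, minus strand), the receptor for Gas6 that is widely used as a marker of mesenchymal and drug-resistant tumour cells, had the opposite direction. Axl had 54.5 and 58.6 CPM (168 and 175 counts) in the RFP+ labelled libraries, which hold more keratin, and 42.3 and 46.7 CPM (110 and 119 counts) in the GFP+ labelled ones. Both GFP+ labelled libraries lay below both RFP+ labelled ones. The log2 fold was -0.36 ± 0.13 (SE; means 56.5 ± 2.85 and 44.5 ± 3.06 CPM, SD; adjusted p = 0.030). It was -0.29 without RFP+ labelled library 2 (adjusted p = 0.181) and -0.28 without GFP+ labelled library 1 (adjusted p = 0.210), so this call too depended on single libraries. The direction was the same in all 12 alternatives, from -0.44 to -0.28, and 7 of them were past the threshold. Those that were not included DESeq2 (-0.36, adjusted p = 0.339) and the test of all genes (-0.36, adjusted p = 0.0863).

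The receptors of the epithelial group did not fall together. Met (6:17463800-17573980, plus strand), the receptor for hepatocyte growth factor, had 41.2 and 41.5 CPM (127 and 124 counts) against 52.7 and 50.2 CPM (137 and 128 counts). The GFP+ labelled libraries were thus the higher ones, with means of 41.4 ± 0.191 and 51.5 ± 1.80 CPM (SD), but the log2 fold of 0.30 ± 0.13 did not pass (adjusted p = 0.076). With offsets for transcript length and GC content it was 0.08 (adjusted p = 0.710). Egfr (11:16752203-16918158, plus strand), the receptor for EGF, amphiregulin and related ligands, had 16.9 and 13.4 CPM (52 and 40 counts) against 11.2 and 10.2 CPM (29 and 26 counts). Its log2 fold was -0.52 ± 0.25 (SE; means 15.1 ± 2.47 and 10.7 ± 0.684 CPM, SD; adjusted p = 0.113). With the length and GC offsets it was -0.80 and past the threshold (adjusted p = 0.0103), so the Egfr call turned on that correction.

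The remaining epithelial receptors were under 10 CPM in both populations and could only be tested without the filter. Erbb3 (10:128567523-128589652, minus strand), which has little kinase activity of its own and signals as a partner of Erbb2 after binding neuregulin, had 6 and 7 counts in the RFP+ labelled libraries (1.95 and 2.34 CPM) and 2 and 2 counts in the GFP+ labelled ones (0.770 and 0.784 CPM). The counting intervals overlapped, from 0.715 to 4.24 CPM in RFP+ labelled library 1 and from 0.093 to 2.78 CPM in GFP+ labelled library 1. The log2 fold was -1.43 with an adjusted p of 0.27. Erbb2 (11:98412470-98437716, plus strand), the ligandless partner of the family, had 6, 11, 8 and 6 counts, at 1.95 and 3.68 CPM against 3.08 and 2.35 CPM, and the populations overlapped (log2 fold -0.06, adjusted p = 0.96). Ddr1 (17:35681567-35704621, minus strand), a collagen receptor of epithelial cells, had 12, 10, 14 and 14 counts, at 3.89 and 3.35 CPM against 5.39 and 5.49 CPM, with a log2 fold of 0.56 (adjusted p = 0.47). With 4 to 28 counts per population, only a large difference in these 3 receptors could have passed the test. Flt1 did so with 17 and 70 counts.

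Igf1r (7:67952827-68233668, plus strand), the receptor for the insulin-like growth factors, had 14.9 and 17.1 CPM (46 and 51 counts) against 16.9 and 11.8 CPM (44 and 30 counts). The populations overlapped, with means of 16.0 ± 1.51 and 14.3 ± 3.66 CPM (SD), and the log2 fold was -0.17 ± 0.24 (adjusted p = 0.627). The library 2 labelled GFP+ was the lowest, and without it the log2 fold was 0.06.

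**Figure D1:**
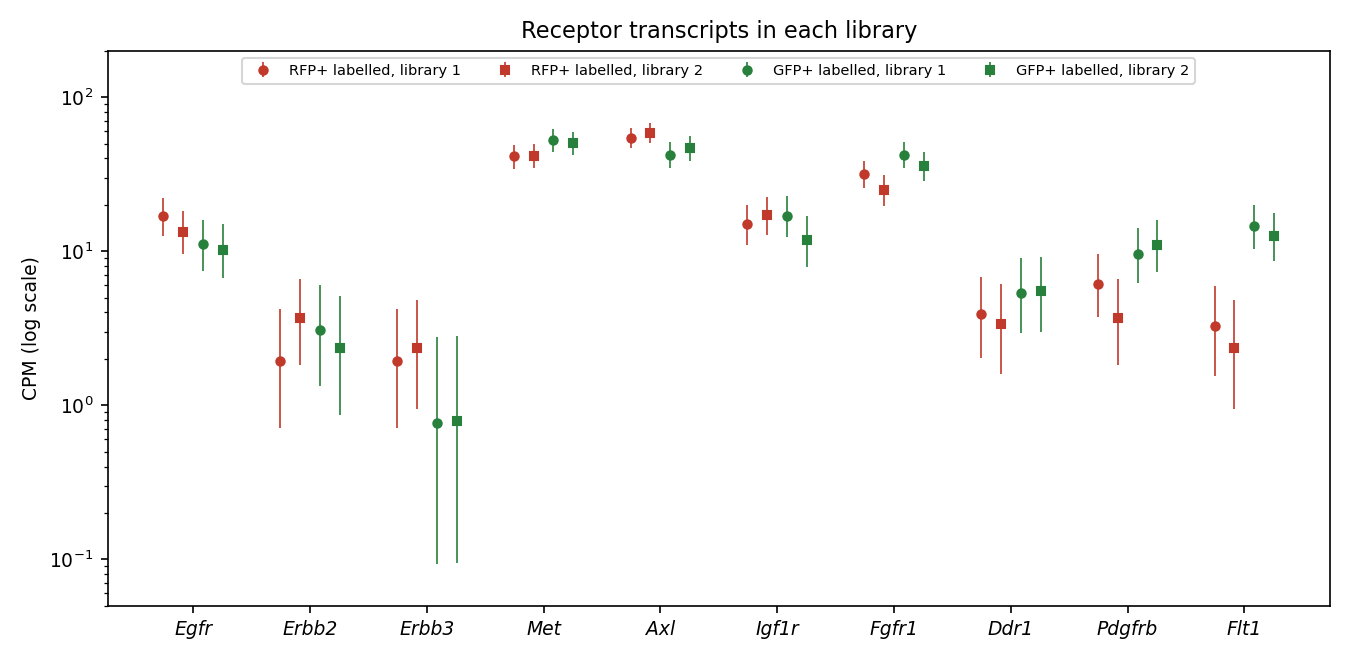
CPM of the 10 receptors (log scale) in the 4 libraries, with exact 95% Poisson intervals of counting as bars. The Flt1 points at 14.6 and 12.5 CPM stand clear of those at 3.25 and 2.34 CPM, the Axl points of the libraries labelled GFP+ lie below the others, and the Erbb2, Erbb3 and Ddr1 intervals are wide.

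All 10 receptors could be tested without the level filter. At an adjusted p under 0.05, 2 of the 10 rose (Flt1 and Pdgfrb) and 0 fell, where 5.26% of the 15875 genes with a count rose and 5.18% fell. DESeq2, run on the genes that passed the filter, called 1 of the 7 receptors tested (Flt1) and 734 of 7595 genes. In edgeR without the filter the unadjusted p was also under 0.05 for Axl (0.0119) and Egfr (0.0413), which were lower. It was under 0.05 too for Fgfr1 (0.0141) and Met (0.0304), which were higher, and for 3501 of the 15875 genes. With the filter, 30.5% of 7595 genes were called, 15.7% higher and 14.9% lower, and the calls of Flt1, Pdgfrb and Fgfr1 (higher) and Axl (lower) stand against that share. Populations did not overlap for 8 of the 10 receptors, all but Erbb2 and Igf1r, and this held for 47.4% of all genes with a count. The median log2 fold over all tested genes was 0.00.

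Summed over the group, Egfr, Erbb2, Erbb3, Met and Ddr1 gave 65.9 and 64.2 CPM in the RFP+ labelled and 73.1 and 69.0 CPM in the GFP+ labelled libraries. Met made up most of this sum, and without it the order turned, to 24.7 and 22.8 CPM against 20.4 and 18.8 CPM. Axl, Fgfr1, Pdgfrb and Flt1 together gave 95.4 and 89.7 CPM against 109 and 106 CPM, and without Axl 40.9 and 31.1 CPM against 66.6 and 59.2 CPM. Neither group went one way: mean CPM in the GFP+ labelled libraries was above that in the RFP+ labelled ones for Met and Ddr1 and below it for Egfr and Erbb3, and it was below for Axl and above for Fgfr1, Pdgfrb and Flt1. The bulk sums cannot tell more cells with a receptor from more RNA per cell.

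Per kilobase of the longest coding transcript, the order of the receptors in the RFP+ labelled libraries was Axl (13.3 CPM per kb), Met (6.07), Fgfr1 (5.61), Egfr (1.48), Igf1r (1.40), Ddr1 (0.935), Pdgfrb (0.908), Erbb2 (0.561), Flt1 (0.405) and Erbb3 (0.357). In the GFP+ labelled libraries it was Axl (10.4 CPM per kb), Fgfr1 (7.74), Met (7.56), Flt1 (1.97), Pdgfrb (1.90), Ddr1 (1.40), Igf1r (1.26), Egfr (1.05), Erbb2 (0.542) and Erbb3 (0.129). Axl, Met and Fgfr1 thus took the first 3 places in both, and Flt1 moved from the last place but 1 to the fourth. Drop-seq counts the 3′ end of a transcript, so counts need not scale with length, and the order without length keeps the same first 3 genes.

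**Figure D2:**
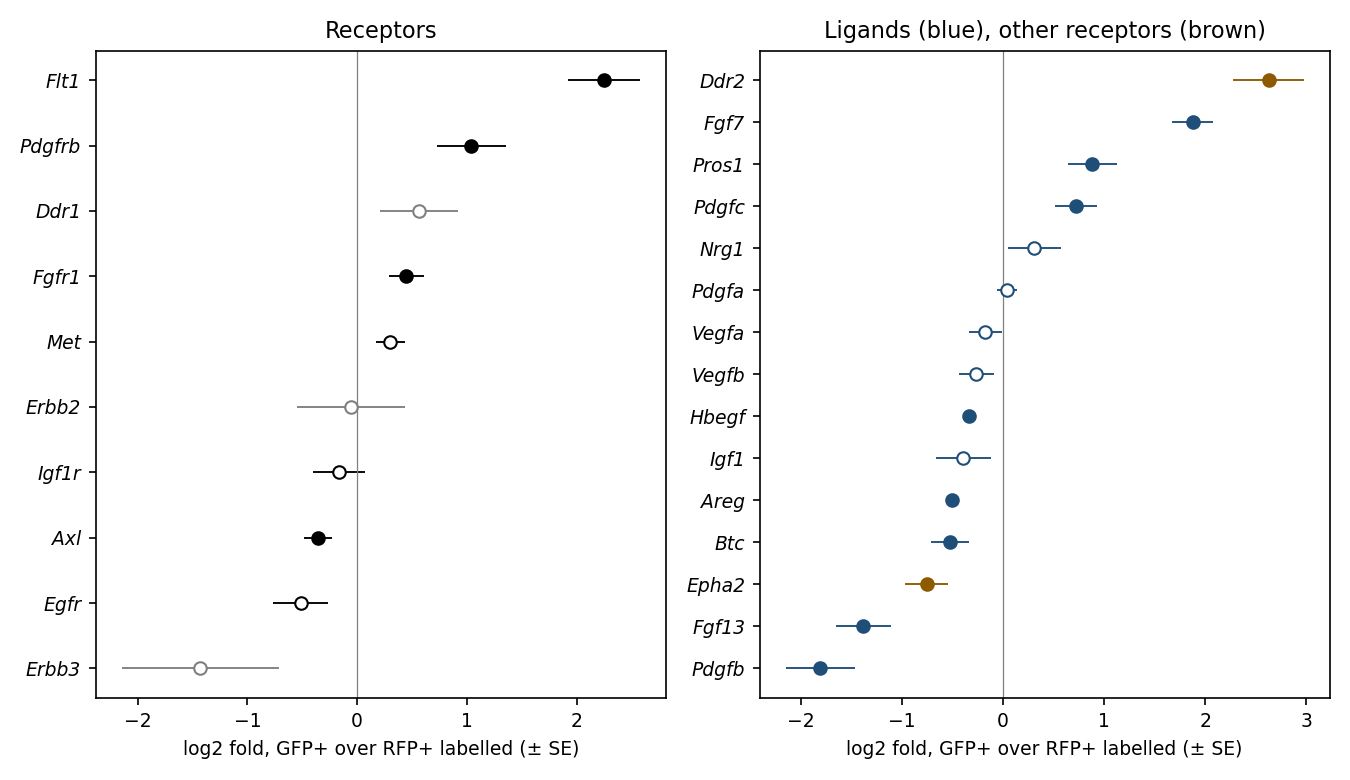
Log2 fold of the GFP+ labelled over the RFP+ labelled libraries with SE, for the receptors (left) and for ligands and other receptor tyrosine kinases chosen by the naming rule (right). Filled points passed an adjusted p of 0.05 in edgeR and grey points were tested only without the level filter. The points run from Erbb3 at -1.43 to Flt1 at 2.25 on the left and from Pdgfb at -1.81 to Ddr2 at 2.63 on the right.

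In single cells the receptors were sparse. Each cell with at least 1000 counts was thinned to 1000 counts, which kept 1545, 1423, 1419 and 1233 cells (RFP+ labelled libraries 1 and 2, then GFP+ labelled libraries 1 and 2). Axl was then seen in 5.11%, 5.48%, 4.16% and 4.79% of cells, and in 7.86%, 8.21%, 6.51% and 6.34% without thinning. The exact Clopper-Pearson 95% intervals of the thinned shares, 4.07% to 6.33% in RFP+ labelled library 1 and 3.18% to 5.33% in GFP+ labelled library 1, overlapped. Met was seen in 3.82%, 4.50%, 4.86% and 4.70% of thinned cells, and Fgfr1 in 3.24%, 3.09%, 4.72% and 3.16%. Flt1 was seen in 0.388% and 0.0703% of the RFP+ labelled and 1.34% and 0.811% of the GFP+ labelled cells, and without thinning in 0.501% and 0.351% against 2.19% and 1.72%. The 38 and 32 Flt1 counts of the libraries labelled GFP+ were spread over 35 and 31 cells with at most 2 counts in a cell, so the counts did not come from a few cells. Shares for the other 6 receptors ran from 0.0705% (Erbb3, GFP+ labelled library 1) to 2.11% (Igf1r, GFP+ labelled library 1). No cell type in these libraries is known to lack the receptors, so the share that free RNA gives could not be measured. Intervals cover counting error only.

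The share of cells with a count of any receptor was near the one that the receptors' shares alone would give. At 1000 counts, 15.4%, 16.7%, 18.5% and 16.3% of cells held a count of any of the 10 receptors, against 15.3%, 16.8%, 18.8% and 16.5% if the receptors were spread independently. Met and Axl were seen together in 14 cells, with 12.2 given by their shares within libraries, Axl and Fgfr1 in 14 cells (9.62), Met and Fgfr1 in 11 (8.98) and Egfr and Met in 5 (3.61). These are descriptions over 45 pairs with few cells each, so neither they nor the share with any receptor can show independence.

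Cells were then ordered within each library by an axis, log2 of the summed counts of 39 mesenchymal genes less log2 of those of 42 epithelial genes, each with 0.5 added, and cut into 5 equal bins from the epithelial end (bin 1) to the mesenchymal end (bin 5). None of the receptors is on the axis. Median counts per cell ran from 1117.5 to 1407.5 over the 20 bins. The bins were cut within each library, so the same bin covers a different stretch of the axis in the 2 populations. The median axis value ran from -0.89 and -0.85 in bin 1 to 2.32 and 2.27 in bin 5 in the RFP+ labelled libraries. In the GFP+ labelled libraries it ran from 0.44 and 0.45 to 4.25 and 4.39. Counts of bin 5 were tested against bin 1 with the library as a block, where 7.4% of 7581 genes were called, 3.59% higher and 3.81% lower. Of the 6 receptors that passed the filter, 1 was called, Flt1, which passed it only through bin 5. Without the filter, a test chosen after seeing the data, 0 of the 10 receptors were called in edgeR, where 462 of 14242 genes were called. Flt1 and Pdgfrb had an unadjusted p under 0.05 there, as did 1568 of the 14242 genes. DESeq2 gave Flt1 no adjusted p and called none of the other receptors that passed the filter. It called 100 of the 7140 genes that it gave an adjusted p, so few receptor calls could be awaited in either test.

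Flt1 had 0, 2, 1, 4 and 3 counts over bins 1 to 5 in RFP+ labelled library 1 and 0, 0, 3, 3 and 1 in RFP+ labelled library 2. It had 1, 8, 3, 9 and 17 counts in GFP+ labelled library 1 and 6, 10, 5, 6 and 5 in GFP+ labelled library 2. The mesenchymal end was therefore far above the epithelial end in GFP+ labelled library 1 and level with it in GFP+ labelled library 2. The log2 fold of bin 5 over bin 1 was 1.85 ± 0.59 (SE; adjusted p = 0.031). Over the 4 libraries Flt1 averaged 3.39 CPM in bin 1 and 12.1 CPM in bin 5, and without the filter the log2 fold was 1.84 and the call was lost (adjusted p = 0.060). Without GFP+ labelled library 1 Flt1 fell under the level filter and was not tested, and without GFP+ labelled library 2 the log2 fold was 4.04 (adjusted p = 0.0011). The call was lost without RFP+ labelled library 1 (1.67, adjusted p = 0.096) and without RFP+ labelled library 2 (1.81, adjusted p = 0.052). It was also lost with 3 bins in place of 5 (0.92, adjusted p = 0.19) and with the 4 most abundant genes taken off each axis list (0.93, adjusted p = 0.34).

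The other receptors gave no call along the axis. Pdgfrb, under the filter, averaged 2.7, 6.5, 8.9, 12.0 and 8.1 CPM over bins 1 to 5 (n = 4 libraries), with a log2 fold of 1.58 in the test of all genes (adjusted p = 0.33). With 3 bins in place of 5 it passed the filter, only through the mesenchymal end where it was high, with a log2 fold of 1.61 (adjusted p = 0.013). Axl averaged 42.6, 46.5, 58.1, 54.0 and 52.4 CPM (log2 fold 0.32 ± 0.21, adjusted p = 0.435), and Fgfr1 27.9, 29.5, 37.8, 38.2 and 35.3 CPM (0.38 ± 0.25, adjusted p = 0.430). The lowest Axl mean was in bin 1 in the GFP+ labelled libraries (35.9 CPM) and in bin 2 in the RFP+ labelled ones (44.7 CPM). Fgfr1 was called once the 4 most abundant genes were taken off each axis list (0.98, adjusted p = 0.0087).

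Among the epithelial receptors, Egfr averaged 12.1, 12.6, 15.3, 15.1 and 9.6 CPM over bins 1 to 5 (log2 fold -0.33 ± 0.43, adjusted p = 0.754). Met averaged between 44.4 and 50.2 CPM in every bin (0.11 ± 0.21, adjusted p = 0.838). Single libraries varied more, from 29.6 CPM in RFP+ labelled library 1 to 64.7 CPM in GFP+ labelled library 1 in bin 5. Igf1r had 14.5 CPM in bin 1 and 19.2 CPM in bin 5 (0.40 ± 0.34, adjusted p = 0.589). Erbb3 had 10 of its 17 counts in bin 1, with 3, 3, 2 and 2 counts in the 4 libraries, and 2 in bin 5 (log2 fold -2.0 in the test of all genes, adjusted p = 0.66). All 4 libraries had more Erbb3 counts in bin 1 than in bin 5. Ddr1 averaged 5.5 CPM in bin 1 and 3.6 CPM in bin 5 (log2 fold -0.63 in the test of all genes, adjusted p = 0.86). Its counts in the 4 libraries were 2, 4, 5 and 2 in bin 1 and 2, 0, 1 and 5 in bin 5, so they had no common direction. Erbb2 averaged 2.6 and 0.5 CPM (-2.1, adjusted p = 0.82), with 2, 5, 0 and 0 counts in bin 1 and 0, 0, 1 and 0 in bin 5 (RFP+ labelled libraries first). The difference of the axis contrast between the populations was called for 0 of 6 receptors in edgeR (adjusted p from 0.83 to 0.99), where 0.29% of genes were called. DESeq2 called 0 of all 7581 genes for this difference, so it says nothing about the receptors. No receptor had an unadjusted p under 0.05 in that test in edgeR, where the lowest was 0.177 for Flt1.

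**Figure D3:**
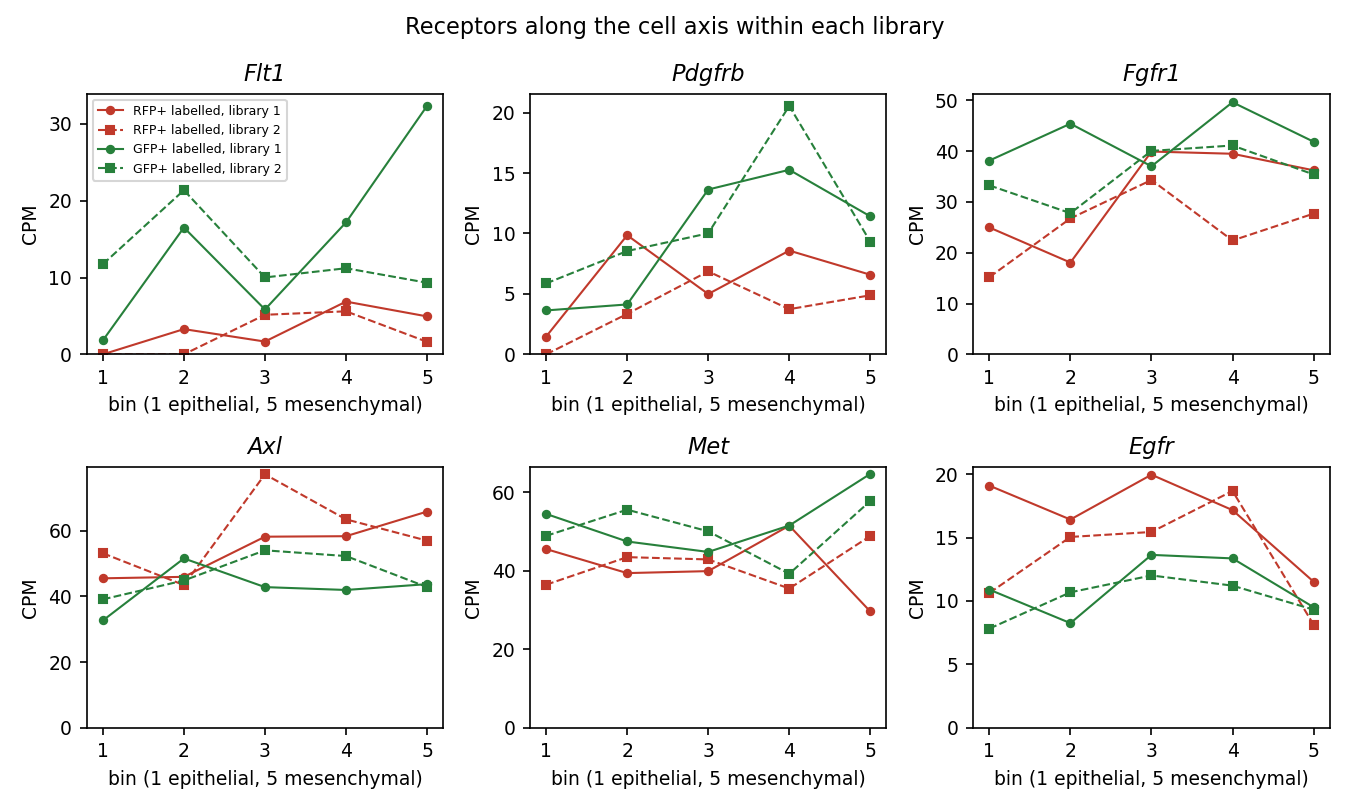
CPM of 6 receptors in 5 bins of cells from the epithelial (1) to the mesenchymal end (5), 1 line per library. Flt1 climbs to 32.3 CPM in GFP+ labelled library 1 but is at 9.32 CPM in bin 5 of GFP+ labelled library 2, Pdgfrb is lowest in bin 1 in all 4 libraries, and Met has no common slope.

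Patterns were compared for Axl, which alone of the receptors had at least 50 CPM over all cells (51.0). Over 20 sums (5 bins in 4 libraries) the genes most like Axl among 3261 were Zyx (Pearson's r = 0.816 of log2(CPM + 5)), Gins2 (0.815) and Eif4ebp1 (0.807). The sums of a library share its preparation and depth, and the r values are a description.

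Genes of the ligand list, which holds ligands of these and of related receptors, differed in both directions. Of 35 ligand genes, 31 were in the table and 14 were tested, of which 3 rose, 5 fell and 6 did not pass, with a median log2 fold of -0.22 against 0.00 over all genes, of which 15.7% rose and 14.9% fell. Without the filter 2 of 31 rose and 4 fell, against 5.26% and 5.18% of all genes. The EGF family ligands Areg and Hbegf, which Egfr binds, were the most abundant. Areg (amphiregulin) had 483 and 501 CPM in the RFP+ labelled and 357 and 345 CPM in the GFP+ labelled libraries, with no overlap, a log2 fold of -0.50 ± 0.06 and an adjusted p of 8.33e-09. Hbegf had 387 and 396 against 305 and 322 CPM (-0.33 ± 0.06, adjusted p = 4.85e-05). Btc (betacellulin) had 28.6 and 24.4 against 19.2 and 18.0 CPM (-0.52 ± 0.19, adjusted p = 0.0323). The Btc call was lost without RFP+ labelled library 1 (-0.41, adjusted p = 0.253), GFP+ labelled library 1 (-0.56, adjusted p = 0.0742) or GFP+ labelled library 2 (-0.49, adjusted p = 0.114), and without the filter (-0.52, adjusted p = 0.0804). Nrg1, the neuregulin that binds Erbb3, had a log2 fold of 0.31 (adjusted p = 0.389). Tgfa had 16 and 7 counts and was not tested.

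The FGF and PDGF genes of the ligand list went in different directions. Fgf7, a ligand made by stromal cells for epithelial FGF receptors, had 8.44 and 12.4 CPM in the RFP+ labelled and 41.6 and 35.7 CPM in the GFP+ labelled libraries, with a log2 fold of 1.88 ± 0.20 (adjusted p = 9.13e-10). The receptor it is known to act on, Fgfr2, had 5 and 3 counts. Fgf13, an FGF relative that stays inside the cell, had 24.7 and 15.4 against 8.85 and 6.67 CPM (-1.38 ± 0.27, adjusted p = 0.000106), and passed the filter only through the libraries labelled RFP+ (without the filter -1.38, adjusted p = 0.00507). Pdgfb, the ligand of Pdgfrb, had 11.4 and 10.4 against 2.31 and 3.92 CPM (-1.81 ± 0.34, adjusted p = 7.41e-05). Pdgfrb had the opposite direction, but it passed the filter only through the libraries labelled GFP+. Its call was lost in DESeq2 and without RFP+ labelled library 2, as given above. Pdgfb passed the level filter only through the libraries labelled RFP+ (without the filter -1.81, adjusted p = 0.00234). Pdgfc, whose receptor is mainly Pdgfra, had 19.8 and 12.7 against 23.1 and 31.4 CPM (0.72 ± 0.21, adjusted p = 0.00731), and the call was lost without RFP+ labelled library 2 (0.46, adjusted p = 0.162) or GFP+ labelled library 2 (0.48, adjusted p = 0.168), and without the filter (0.72, adjusted p = 0.0558). Pdgfa was at 103 and 94.0 against 109 and 96.1 CPM (0.04, adjusted p = 0.789).

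Pros1 (protein S), a ligand of Tyro3 and Mertk, the family partners of Axl, had 10.4 and 8.70 against 20.01 and 15.7 CPM (0.89 ± 0.25, adjusted p = 0.00531). It passed the filter only through the libraries labelled GFP+, and without the filter the adjusted p was 0.0233. That call was lost without RFP+ labelled library 2 (0.78, adjusted p = 0.0559) or GFP+ labelled library 1 (0.71, adjusted p = 0.0923). Gas6, the ligand of Axl, was under the filter with 16 counts in the RFP+ labelled and 32 in the GFP+ labelled libraries, and Hgf, the ligand of Met, had 4 and 0 counts. Tyro3 and Mertk had 17 and 7, and 3 and 5 counts. Of the ligands of Flt1, Vegfa had a log2 fold of -0.17 (adjusted p = 0.441) and Vegfb of -0.26 (adjusted p = 0.261), and Pgf had 14 and 25 counts. Vegfb was called without GFP+ labelled library 2 (-0.57, adjusted p = 0.0374). Igf1, the ligand of Igf1r, was at 11.04 and 12.7 against 10.4 and 7.84 CPM (-0.39, adjusted p = 0.283).

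Along the axis within libraries, 2 of 13 genes tested from the ligand list rose toward the mesenchymal end (Fgf7 and Igf1). Of the same genes 1 fell (Fgf13, which stays inside the cell), where 3.59% of all genes rose and 3.81% fell. Fgf7 averaged 11.2 CPM in bin 1 and 41.8 CPM in bin 5 (log2 fold 1.89 ± 0.31, adjusted p = 9.03e-08), and it went up in both populations, from 4.53 to 14.8 CPM in the RFP+ labelled and from 17.8 to 68.8 CPM in the GFP+ labelled libraries. It was past the threshold without each library in turn. Fgf13 fell by 1.24 ± 0.41 on the log2 scale (adjusted p = 0.0343), and the call was lost without any 1 library (-1.60 to -1.0, adjusted p from 0.0607 to 0.216). Igf1 rose by 1.48 ± 0.47 (adjusted p = 0.0285), from 5.19 to 24.5 CPM in the RFP+ labelled libraries but from 5.66 to 4.70 CPM in the GFP+ labelled ones. Igf1 passed the filter only through the mesenchymal end, at 14.6 against 5.42 CPM over the 4 libraries, and without the filter its log2 fold was 1.47 (adjusted p = 0.0362). That difference between populations did not pass (-2.45 ± 1.12, adjusted p = 0.609), and without RFP+ labelled library 1 the Igf1 call was lost (1.49, adjusted p = 0.135).

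**Figure D4:**
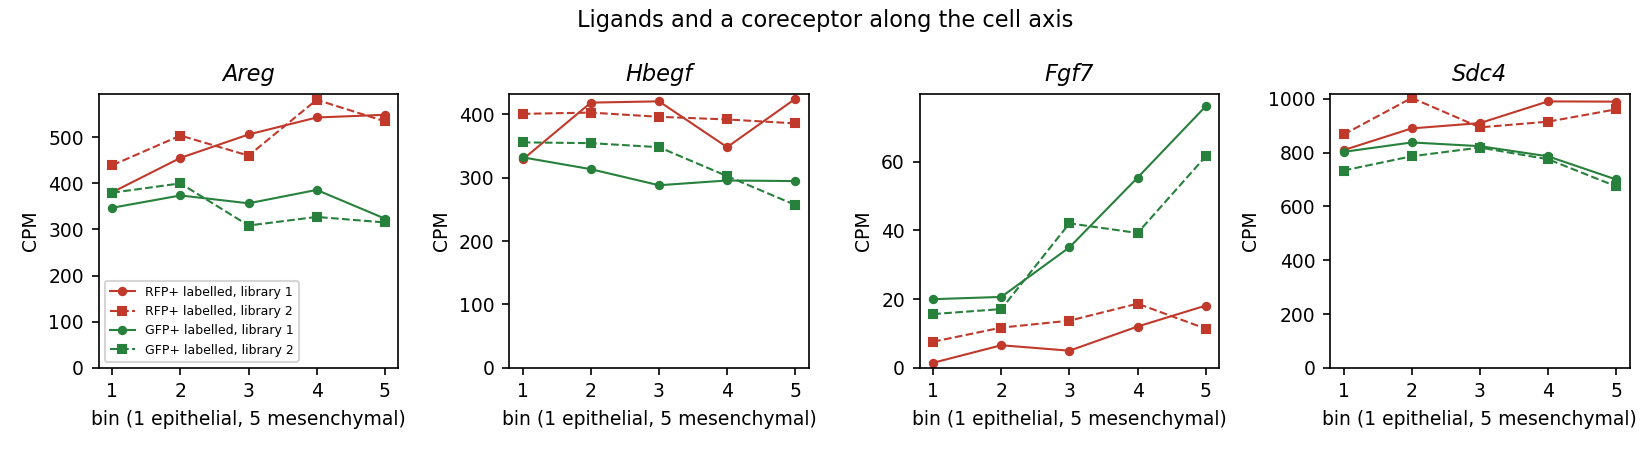
CPM of the ligands Areg, Hbegf and Fgf7 and of the coreceptor Sdc4 in 5 bins of cells from the epithelial (1) to the mesenchymal end (5), 1 line per library. Fgf7 reaches 68.8 CPM on average in bin 5 of the libraries labelled GFP+, and Areg and Sdc4 end higher than they start in the libraries labelled RFP+ and lower in those labelled GFP+.

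Of 48 other receptor tyrosine kinases, 35 were in the table and 5 passed the filter, of which 1 rose, 1 fell and 3 did not pass, against 15.7% and 14.9% of all genes. Ddr2, the collagen receptor of mesenchymal cells and the family partner of Ddr1, had 2.60 and 1.67 CPM in the RFP+ labelled and 12.7 and 14.5 CPM in the GFP+ labelled libraries, with a log2 fold of 2.63 ± 0.35 (adjusted p = 1.18e-07). It passed the filter only through the latter (without the filter 2.63, adjusted p = 0.000125). Epha2, an ephrin receptor, had 24.99 and 22.4 against 13.9 and 14.5 CPM (-0.75 ± 0.21, adjusted p = 0.00546), a call lost without RFP+ labelled library 1 (-0.68, adjusted p = 0.0601). Erbb4 had 1 and 0 counts, Insr 24 and 10, and Fgfr3 2 and 1.

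Of 20 genes for coreceptors, binding proteins and shedding enzymes, 12 were tested, of which 2 rose, 5 fell and 5 did not pass, against 15.7% and 14.9% of all genes. Igfbp7, which binds insulin-like growth factors, had 662 and 649 against 448 and 464 CPM (-0.54 ± 0.06, adjusted p = 3.82e-10). Sdc1, a heparan sulphate coreceptor, fell by 0.62 ± 0.14 (adjusted p = 0.000425). The protease St14 (-1.12 ± 0.17, adjusted p = 1.5e-06) and the inhibitor Spint2 (-1.28 ± 0.13, adjusted p = 8.35e-11), which act on the activation of hepatocyte growth factor, are also on the epithelial axis list and are no separate evidence from it. Adam10, which sheds EGF family ligands, rose from 107 and 98.7 to 154 and 138 CPM (0.49 ± 0.09, adjusted p = 2.69e-05).

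Of 32 adaptor and relay genes, 23 were tested, of which 4 rose, 1 fell and 18 did not pass, with a median log2 fold of -0.02. The 5 called stand against 30.5% called over all genes, and the difference in share was not tested. Grb2, the adaptor that couples receptors to RAS, had 599 and 591 against 680 and 703 CPM (0.20 ± 0.05, adjusted p = 0.00356). In cells thinned to 1000 counts the Grb2 fold was 0.12 and the call was lost (adjusted p = 0.165). Pik3cb (0.36, adjusted p = 0.00213) and Pik3r1 (0.36, adjusted p = 0.00379), subunits of PI3-kinase, rose and Akt1 fell by 0.55 (adjusted p = 0.012). Without GFP+ labelled library 1 those values were 0.23 for Pik3cb (adjusted p = 0.144), 0.31 for Pik3r1 (adjusted p = 0.0555) and -0.48 for Akt1 (adjusted p = 0.0864), and without RFP+ labelled library 1 Akt1 was at -0.50 (adjusted p = 0.0918). With the length and GC offsets, Pik3cb was at 0.15 (adjusted p = 0.205) and Pik3r1 at 0.13 (adjusted p = 0.356). Sos2, which loads RAS, rose by 0.66 (adjusted p = 0.0133), a call lost without RFP+ labelled library 2 (0.62, adjusted p = 0.0701) or GFP+ labelled library 2 (0.47, adjusted p = 0.201).

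Of 28 genes for feedback and receptor turnover, 17 were tested, of which 4 rose, 2 fell and 11 did not pass, a called share near the 30.5% over all genes. Errfi1 (MIG6), which binds and inhibits Egfr, had 87.3 and 90.0 against 123 and 117 CPM (0.43 ± 0.09, adjusted p = 0.00041). Usp8, which acts on receptor sorting, rose by 0.27 ± 0.07 (adjusted p = 0.00436). Without GFP+ labelled library 1 the Usp8 value was 0.24 (adjusted p = 0.053), and with the length and GC offsets it was 0.15 (adjusted p = 0.159). Dusp5, a phosphatase of ERK, fell by 0.43 (adjusted p = 0.013) and Socs3 by 0.89 (adjusted p = 0.0238). Socs3 passed the filter only through the libraries labelled RFP+, and without the filter both calls were lost (Socs3 -0.90, adjusted p = 0.066, and Dusp5 -0.44, adjusted p = 0.0529). The Dusp5 call was lost without RFP+ labelled library 1 (-0.37, adjusted p = 0.116) or GFP+ labelled library 1 (-0.34, adjusted p = 0.143), and the Socs3 call without GFP+ labelled library 1 (-0.98, adjusted p = 0.0777) or GFP+ labelled library 2 (-0.82, adjusted p = 0.133).

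Of 16 genes that ERK signalling is known to induce, 13 were tested, of which 2 rose, 5 fell and 6 did not pass, with a median log2 fold of -0.23, against 15.7% and 14.9% of all genes that rose and fell. Epha2, described above, is among those that fell. The ETS factor Etv1 had 3.57 and 3.35 against 13.9 and 18.8 CPM (2.21 ± 0.31, adjusted p = 3.61e-07), and passed the filter only through the libraries labelled GFP+ (without the filter 2.21, adjusted p = 0.000236). Ier3, an immediate early gene, had 191 and 186 against 119 and 124 CPM (-0.65 ± 0.08, adjusted p = 1.53e-08). Myc had 76.9 and 68.3 against 48.5 and 45.1 CPM (-0.65 ± 0.12, adjusted p = 6.03e-05), and along the axis it fell by 0.66 ± 0.19 (adjusted p = 0.0121), a call lost without RFP+ labelled library 1 (-0.68, adjusted p = 0.0802) or GFP+ labelled library 2 (-0.52, adjusted p = 0.124). Plaur, the urokinase receptor, fell by 0.62 (adjusted p = 0.0131), a call lost without RFP+ labelled library 1 (-0.48, adjusted p = 0.182) or GFP+ labelled library 1 (-0.58, adjusted p = 0.064).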

How the data were processed

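The authors deposited 1 table of raw counts per gene and cell, whole numbers up to 342, made by Drop-seq with Nextera libraries, per the labels' protocols. The build was GRCm38, per the submitters' processing notes, and for the aligner, the counter and any collapsing of molecular identifiers the tool or step is not given in the sources used here. Cells were kept from 500 counts up, with mitochondrially encoded genes below 20% (7390 of 7400), and no doublets were removed. Counts were summed per library, each library's 2 lanes being pooled in the table, and 2 libraries per population were compared by the quasi-likelihood test of edgeR 4.0.16 (R 4.3.3), with TMM scaling and a Benjamini-Hochberg adjusted p under 0.05, over genes with at least 10 CPM in either population and 20 counts in all. The same test, with the library as a block, compared the ends of the cell axis. Each SE was computed as the size of the log2 fold divided by √F, from a spread moderated across genes. Coordinates and lengths come from GENCODE M21. The scripts were tested on simulated data. The receptors and the gene lists were chosen with earlier results of these data known, so a list's counts are a description. Genes named from a list are its 5 largest called changes and tested ligands or family partners of the receptors, not all of which are reported here. Untested partners with their counts, and Sdc4, Igfbp4, Mapk3, Pecam1 and Col1a2, were named after their values were seen. Alternatives were DESeq2 1.42.0, other filters, cell depths and offsets, and leaving out each library, where the lone library is assumed to vary like the others.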

Additional observations from a re-analysis of the deposited data

Results flagged for a closer look

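Areg and Sdc4 changed differently from bin 1 to bin 5 in the 2 populations, by a test of the difference itself. Bins 1 and 5 cover different stretches of the cell axis in the 2 populations, and the part of this in the difference was not tested. For Areg, the log2 fold of bin 5 over bin 1 was 0.43 in the libraries labelled RFP+ (410 ± 41.4 to 541 ± 9.93 CPM, SD, n = 2) and -0.17 in those labelled GFP+ (363 ± 23.0 to 319 ± 5.95 CPM), a difference of -0.60 ± 0.14 (SE; edgeR adjusted p = 0.0176). Areg kept the direction of this difference in all 10 alternatives, and the call in 5 of them. The call was lost without RFP+ labelled library 1 (-0.47, adjusted p = 0.524), without GFP+ labelled library 1 (-0.68, adjusted p = 0.0576) and without GFP+ labelled library 2 (-0.52, adjusted p = 0.460), and also in DESeq2 (-0.59, adjusted p = 0.9999). For Sdc4, a heparan sulphate coreceptor of FGF receptors, levels were 838 ± 41.1 CPM in bin 1 and 975 ± 20.2 CPM in bin 5 under the RFP+ label, and 768 ± 48.9 and 687 ± 17.9 CPM under the GFP+ label. The difference was -0.39 ± 0.10 (adjusted p = 0.0443), and its call was kept in 1 of 10 alternatives, the filter of 50 CPM. Without each library in turn the Sdc4 difference ran from -0.44 to -0.31 and its adjusted p from 0.0855 to 0.568.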

How the results depend on the processing

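Over all genes, the population comparison called 2319 genes, and 734 with DESeq2, 1466 with cells thinned to 1000 counts and 1669 to 1829 without each library in turn. The axis comparison called 561 genes and 100 with DESeq2. The difference between populations called 22 genes, 14 with cells of at least 1000 counts, 7 without the most abundant axis genes, 0 with DESeq2 (20 at an unadjusted p under 0.05, against 543 in edgeR) and 6 to 15 without each library in turn. The mean share of cells with a receptor count was 1.81% thinned to 1000 counts, 2.64% not thinned and 0.903% thinned to 500 counts. Of the receptors, Flt1 kept its population call in all 10 alternatives that tested it (2.05 to 2.50). Axl kept it in 7 of 12, with log2 folds of -0.36 in DESeq2, -0.36 without the filter, -0.31 in thinned cells and -0.44 to -0.28 without each library. Fgfr1 kept it in 5 of 11, with 0.45, 0.45 and 0.33 in the same settings, 0.42 in cells of at least 1000 counts and 0.31 to 0.62 without each library. Pdgfrb kept it in 6 of 8, with 1.05 in DESeq2 and 0.73 to 1.45 without each library that left it testable. Egfr passed with length and GC offsets (-0.80). Igf1r turned to 0.043 in thinned cells and ran from -0.45 to 0.057 without each library, and Pdgfa turned to -0.0081 in thinned cells and ran from -0.046 to 0.11. The cause was not tested. DESeq2 also ended the population calls of Epha2, Pros1, Pdgfc, Btc, Sdc1, Sos2, Akt1, Pik3cb, Pik3r1, Grb2, Socs3, Dusp5, Errfi1, Usp8 and Plaur, all in the same direction. Thinning ended those of Epha2, Pros1, Pdgfc, Btc, Sos2, Pik3r1, Grb2, Socs3 and Plaur, and the length and GC offsets those of Sos2, Akt1, Pik3cb, Pik3r1, Socs3, Dusp5, Usp8 and Plaur. Along the axis Igfbp4 rose by 0.41 (adjusted p = 0.00258) and Mapk3 by 0.87 (adjusted p = 0.0128), but both calls were lost without RFP+ labelled library 1 or 2, and that of Mapk3 also without GFP+ labelled library 2. For the axis, the test without a filter was chosen after seeing the data. No paired analysis was possible because the populations' library names share only 1 number, so the replicate block could not be fitted. Receptors with 4 to 30 counts in a population are limited by counting.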
